A study of Mus musculus with 2 samples.

Results

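The 8 genes described here are the 7 globin genes that mouse embryos use for haemoglobin and Alas2, the erythroid enzyme of the first step of haem synthesis. They were taken by gene symbol from 31053 features in each of 2 droplet single-cell RNA libraries, and all 8 were found in both. The alpha-like genes are Hba-a1, Hba-a2 and the embryonic Hba-x, and the beta-like genes are Hbb-bs, Hbb-bt and the embryonic Hbb-y and Hbb-bh1. The cells were sorted for Cd11b and Cd45 from the hypothalamic and thalamic region of outbred wild-type CD1 mouse embryos at embryonic stage E15.5, and the labels call them microglia. The control library pooled tissue from 10 embryos of 1 dam. The stressed library pooled tissue from 5 embryos of 1 dam that was kept at 4 °C for 30 min on each of 5 days, from stage E11.5 to E15.5. With 1 library per condition there was no replicate, so no test between conditions was made. All intervals below are 95% intervals for the error of counting alone, and the effect of the cold exposure cannot be told apart from that of the litter or the library.

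Haemoglobin is a tetramer of alpha-like and beta-like chains, each holding a haem group. The first, primitive red cells of a mouse embryo arise in the yolk sac, circulate with their nuclei, and make the embryonic chains Hba-x, Hbb-y and Hbb-bh1. Definitive red cells, which arise in the fetal liver and later in bone marrow, make the adult chains. Alas2 supplies the haem that these chains need. Red cells are the main makers of haemoglobin, although globin transcripts have also been reported in some neurons, glia, macrophages and endothelial cells. Mature red cells lack Cd45, which the sort gate selected for.

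In the GENCODE M21 annotation of GRCm38 the alpha-like genes lie on chromosome 11, forward strand: Hba-x at chr11:32276400-32278116, Hba-a1 at chr11:32283511-32284465 and Hba-a2 at chr11:32296489-32297298. The beta-like genes lie on chromosome 7, reverse strand: Hbb-bt at chr7:103812524-103813996, Hbb-bs at chr7:103826534-103828096, Hbb-bh1 at chr7:103841637-103843164 and Hbb-y at chr7:103851749-103853216. Each globin gene has 3 exons. Alas2 has 11 exons and lies at chrX:150547375-150570638, forward strand. The coding sequences of Hba-a1 and Hba-a2 differ at 1 of 426 bases, and the 77 bases that follow the Hba-a1 coding sequence are identical in Hba-a2. Hbb-bs and Hbb-bt differ at 1 of 441 coding bases, but only 95 of 132 aligned bases after the coding sequence are identical. Reads at the 3′ end can therefore separate Hbb-bs from Hbb-bt better than Hba-a1 from Hba-a2, so the split between the alpha pair is uncertain and their sum is the firmer value. The embryonic genes are easier to separate: Hba-x shares 61.7% of its coding bases with Hba-a1, and Hbb-y shares 74.4% with Hbb-bs.

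The promoters of the genes on which the contrast of adult and embryonic globins turns are shown as the 150 bases before the RefSeq start of each gene (GRCm38.p6), 5′ to 3′ on the strand of the gene. Capitals mark 4 short motifs found on either strand: CACCC, which erythroid Krüppel-like factors bind; CCAAT, the CCAAT box; GATAA, which GATA factors bind; and TATAA, the TATA box. No 2 of the matches overlap. The windows are Hba-a1 at chr11:32283522-32283671 on the forward strand, Hba-x at chr11:32276450-32276599 on the forward strand, Hbb-bs at chr7:103827929-103828078 on the reverse strand, Hbb-bt at chr7:103813924-103814073 on the reverse strand and Hbb-y at chr7:103853208-103853357 on the reverse strand.
Hba-a1: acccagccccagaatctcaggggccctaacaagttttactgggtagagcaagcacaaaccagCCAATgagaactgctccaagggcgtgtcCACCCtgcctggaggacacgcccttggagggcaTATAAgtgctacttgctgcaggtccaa
Hba-x: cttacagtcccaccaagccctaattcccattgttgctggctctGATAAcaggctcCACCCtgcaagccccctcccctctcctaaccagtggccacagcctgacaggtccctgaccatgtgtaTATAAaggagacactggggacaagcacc
Hbb-bs: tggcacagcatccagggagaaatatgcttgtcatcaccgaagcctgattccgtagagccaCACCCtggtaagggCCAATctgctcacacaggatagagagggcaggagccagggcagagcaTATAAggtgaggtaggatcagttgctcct
Hbb-bt: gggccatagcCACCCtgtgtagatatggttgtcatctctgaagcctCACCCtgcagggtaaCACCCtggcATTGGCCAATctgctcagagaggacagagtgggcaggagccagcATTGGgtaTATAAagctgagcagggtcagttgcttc
Hbb-y: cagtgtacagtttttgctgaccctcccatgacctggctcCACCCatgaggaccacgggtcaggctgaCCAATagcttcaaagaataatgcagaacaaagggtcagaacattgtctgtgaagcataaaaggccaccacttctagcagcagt
CACCC was present in all 5 windows, once in each but Hbb-bt, which held 3 copies. CCAAT was present in the 3 adult genes and Hbb-y but not in Hba-x, and Hbb-bt again held 3 copies. TATAA was present once in each window but that of Hbb-y, and GATAA was found only in the Hba-x window of these 5. Of 32851 RefSeq windows of the same length, 37.4% held CACCC, 24.5% CCAAT, 13.3% GATAA and 14.2% TATAA. Longer RefSeq windows of Hba-a1 and Hba-a2, which reach past the start, were the same sequence, identical over 297 of 297 bases at an offset of 3. Of the windows shown, those of Hba-a1, Hba-x and Hbb-bs lie inside the GENCODE spans given above, as the RefSeq and GENCODE starts differ.

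The control library held 1156 barcodes and 2833015 unique molecular identifiers (UMIs, each counting 1 captured molecule once), and its median barcode had 1947.5 UMIs from 945 genes. The stressed library had 1467 barcodes with 6582188 UMIs in all, and its median barcode had 3767 UMIs from 1452 genes. Clusters named microglia-like held 730 of the control and 1171 of the stressed barcodes. The 12 microglia markers summed to between 9902 and 17336 CPM in these 4 clusters and to between 1136 and 5297 CPM in the others. The libraries shared 13 barcodes, and in 12 of these 1 library had at least 10 times more UMIs than the other. One of the 13 was rich in globins in both libraries, with 8848 UMIs of which 94.2% were globin in the control library and 596 UMIs of which 80.0% were globin in the stressed library. The summed difference, the shares of globin-rich barcodes and the differences of the adult globin genes are also given without the shared barcodes. Doublets were neither called nor removed, and the submitters' design text estimates them at 3 to 4%. UMIs of these 3′ libraries were not divided by gene length, so levels of different genes are compared as molecules captured.

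The 4 adult globin genes made up nearly all haemoglobin transcripts in both libraries, and over all barcodes their summed level was close between them. The 7 globins had 48171 UMIs in the control library, or 17003 UMIs per 1000000 UMIs of the library (CPM), and 117987 UMIs or 17925 CPM in the stressed library. The difference was 0.08 on the log2 scale (stressed over control, 0.06 to 0.09), a 1.05-fold difference. Without the shared barcodes it was 0.33, without the 1% of barcodes richest in globin 1.04, and with a filter on barcodes (500 genes or more, mitochondrial share up to 10%) 1.19. CPM scaling set the median of all features close to 0 (-0.06 at 50 CPM or more), and edgeR's TMM factors or DESeq2's size factors would move every log2 value below up by 0.14 or 0.15.

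Hbb-bs, an adult beta chain, was the most abundant member. It had 24357 UMIs or 8598 CPM in the control library and 61547 UMIs or 9351 CPM in the stressed library. Hba-a1, the first adult alpha gene, came next with 17717 UMIs or 6254 CPM and 40880 UMIs or 6211 CPM. Hbb-bt, the second adult beta gene, followed with 5094 UMIs or 1798 CPM and 14532 UMIs or 2208 CPM. The order of these 3 genes was the same in both libraries, with no overlap between the intervals of neighbours. Their log2 differences were 0.12 (0.10 to 0.14) for Hbb-bs, -0.01 (-0.04 to 0.02) for Hba-a1 and 0.30 (0.25 to 0.34) for Hbb-bt. Without the shared barcodes the differences of Hbb-bs and Hbb-bt were 0.36 and 0.63. The value of Hba-a1 changed sign under the other scalings (0.13 with TMM, 0.14 with DESeq2 factors) and without the shared barcodes (0.24). Hba-a2 had 367 UMIs or 130 CPM in the control library and 692 UMIs or 105 CPM in the stressed library. Its log2 difference was -0.30 (-0.49 to -0.11) and came to -0.04 without the shared barcodes. The value stayed below 0 under the other scalings (-0.17 with TMM, -0.15 with DESeq2 factors). It was above 0 with the barcode filter (0.39), without the 1% of barcodes richest in globin (1.20) and as a mean of per-barcode CPM (0.51).

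Hba-x and Hbb-y were lower in the stressed library, but each rested on a few barcodes. Hba-x, the embryonic alpha-like chain, had 303 UMIs or 107 CPM in the control library and 231 UMIs or 35.1 CPM in the stressed library, a log2 difference of -1.61 (-1.86 to -1.36). Hbb-y, an embryonic beta-like chain, had 327 UMIs or 115 CPM and 102 UMIs or 15.496 CPM, a log2 difference of -2.90 (-3.23 to -2.57). In the control library the intervals of Hba-a2, Hbb-y and Hba-x overlapped, so their order there was not resolved. A single barcode held 93.9% of the control and 87.3% of the stressed Hbb-y UMIs, and 64.7% and 90.9% of the Hba-x UMIs. With each barcode weighted equally (the mean of per-barcode CPM) both differences turned round, to 2.72 for Hba-x and 1.38 for Hbb-y. Hbb-bh1, the other embryonic beta-like chain, had 6 UMIs in 2 control barcodes and 3 UMIs in 1 stressed barcode, and 3 of the control UMIs lay in the shared globin-high barcode.

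Of 2725 features at 50 CPM or more in either library, the stressed library had 12 (0.44%) at 2 times the control level or above and 41 (1.5%) at 0.5 times or below. Of the 6 members at that level, 0 were 2 times higher, and Hba-x and Hbb-y were 2 times lower. Other globin genes were almost silent. Hbq1a had 1 control and 3 stressed UMIs, Hbq1b had 1 in each, and Hbb-bh2 had 0 in both, which allows up to 1.30 CPM in the control and 0.560 CPM in the stressed library.

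**Figure D1:**
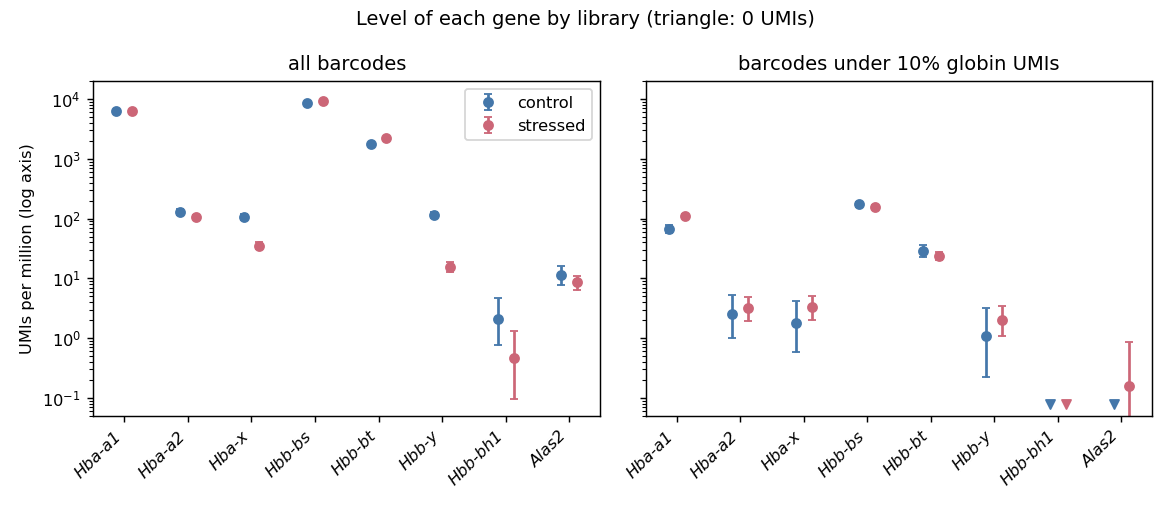
Level of each gene in CPM on a log axis, in all barcodes (left) and in barcodes in which globins were under 10% of the UMIs (right). Points are library sums of the control (blue) and stressed (red) library, bars are 95% Poisson intervals for counting error, and triangles mark 0 UMIs; Hbb-bs, Hba-a1 and Hbb-bt lead in both panels.

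Haemoglobin transcripts were gathered in a small number of barcodes. Barcodes in which the 7 globins took at least 10% of the UMIs are called globin-high here: there were 19 of 1156 in the control library (1.64%, Clopper-Pearson 0.992 to 2.55) and 36 of 1467 in the stressed library (2.45%, 1.72 to 3.38). They held 47412 of the control and 116077 of the stressed globin UMIs, 98.4% in each library. Without the shared barcodes the shares of barcodes were 1.57% and 2.41%. The intervals of both libraries overlapped. Few barcodes lay near the limit: 1 control and 3 stressed barcodes lay between 5% and 10%, and 1 and 4 lay between 10% and 20%. In 17 control and 29 stressed barcodes globins took 50% or more, and in 10 and 17 they took 90% or more. The richest control barcode, which is the shared one, held 8334 globin UMIs or 17.3% of its library's total, and the richest stressed barcode held 8166 or 6.92%.

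**Figure D2:**
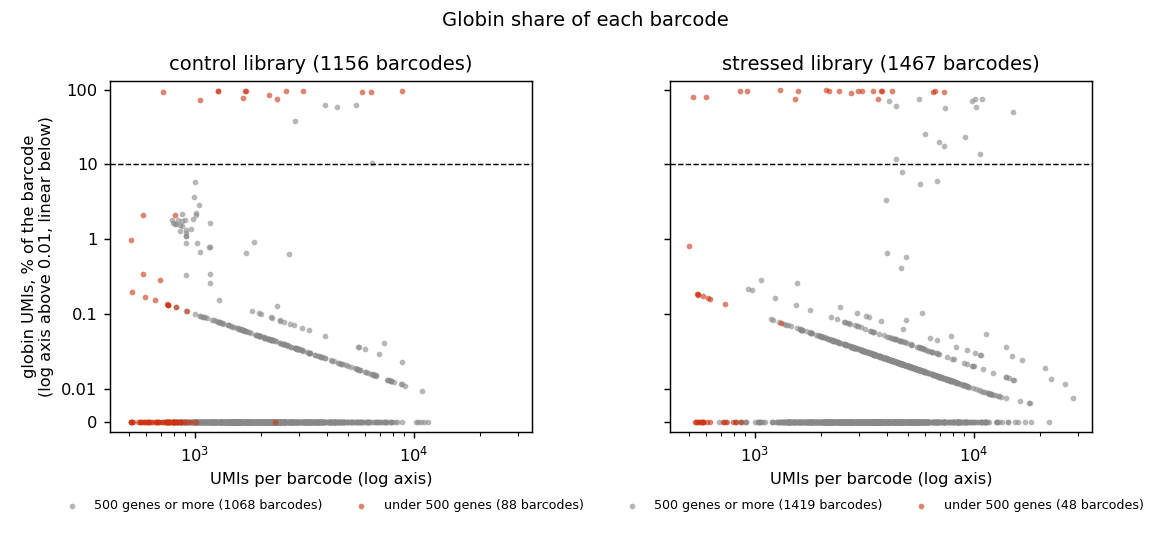
Share of UMIs from the 7 globin genes (vertical axis in percent, log above 0.01 and linear below) against UMIs per barcode (log axis) for every barcode of the control (left) and stressed (right) library. Red points have under 500 genes, grey points 500 or more, and the dashed line is the 10% limit with 19 control and 36 stressed barcodes above it; the sloping bands are barcodes with 1, 2 or more globin UMIs.

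The globin-high barcodes fell into 2 kinds by the number of genes they held, a split at 500 genes that was made after the values were seen. In 14 control and 21 stressed barcodes fewer than 500 genes were detected, with medians of 121.5 and 76 genes. Globins took a median of 94.0% of their UMIs in the control library (lowest 73.5%) and 95.3% in the stressed library (lowest 74.1%). Their median depth was 1948.5 and 2753 UMIs, against 2010.5 and 3772 in barcodes with under 0.1% globin. Without globins the 14 control barcodes held 3464 UMIs in all and the 21 stressed ones 4431. The median mitochondrial share was 0.114% and 0.0790%, against 2.18% and 3.52% in barcodes with under 0.1% globin. It was taken over all UMIs, so a high globin share lowers it by itself and no difference is read from it. The globin-high barcodes with under 500 genes held 77.2% of the control and 49.0% of the stressed globin UMIs. A filter at 500 genes, common in such data, removes all of them.

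Among the few other transcripts of these barcodes, erythroid genes stood out. Of 14 erythroid markers in the table that are no members, 7 were detected in each library with 28 UMIs in each, or 8083 (5371 to 11682) and 6319 (4199 to 9133) per 1000000 non-globin UMIs. In barcodes with under 0.1% globin the same list was at 3.32 (1.52 to 6.30) and 3.00 (1.80 to 4.68). Gata1, the master transcription factor of the erythroid lineage, and Cldn13 were at 0 UMIs in both whole libraries. Endothelial markers were at 0 in both sets, pericyte markers had 1 UMI in the control and 0 in the stressed set, and microglia markers had 3 and 8 UMIs, or 866 and 1805 on the same scale.

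The other 5 control and 15 stressed globin-high barcodes held 500 genes or more, with medians of 996 and 1480 genes and 4469 and 7384 UMIs. Globins took a median of 58.5% and 56.1% of their UMIs, and these barcodes held 21.2% and 49.4% of the globin UMIs of their libraries. Their other transcripts included vascular, microglia, neural and erythroid markers. Pericyte markers such as Rgs5 and Higd1b stood at 6774 per 1000000 non-globin UMIs in the control and 3541 in the stressed set, against 66.0 and 41.8 in barcodes with under 0.1% globin. Endothelial markers stood at 2232 and 1191, against 31.0 and 23.0. Erythroid markers, with 4 and 36 UMIs, stood at 308 (83.9 to 788) and 564 (395 to 781), against 3.32 and 3.00. On this scale both levels were below those of the globin-high barcodes with fewer genes. The scale falls as a barcode holds more other transcripts, so it does not rank erythroid content. Beside their globins, the barcodes with fewer genes held 28 erythroid UMIs to 37207 globin UMIs in the control and 28 to 57769 in the stressed library. Those with 500 genes or more held 4 to 10205 and 36 to 58308. Counted per barcode, vascular markers had the most UMIs in 3 of 5 control and 5 of 15 stressed barcodes, microglia markers in 2 and 4, and neural markers in 0 and 5, with 1 stressed barcode tied. The neural count rests on few genes. In the stressed set Fabp7 gave 171, Vim 36 and Hes1 17 of 229 neural progenitor UMIs. Sox2 and Sox1 had 1 UMI each there, Pax6 and Hes5 had 0, and the neuron list had 6. Whether such barcodes hold more than 1 cell was not tested.

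**Figure D3:**
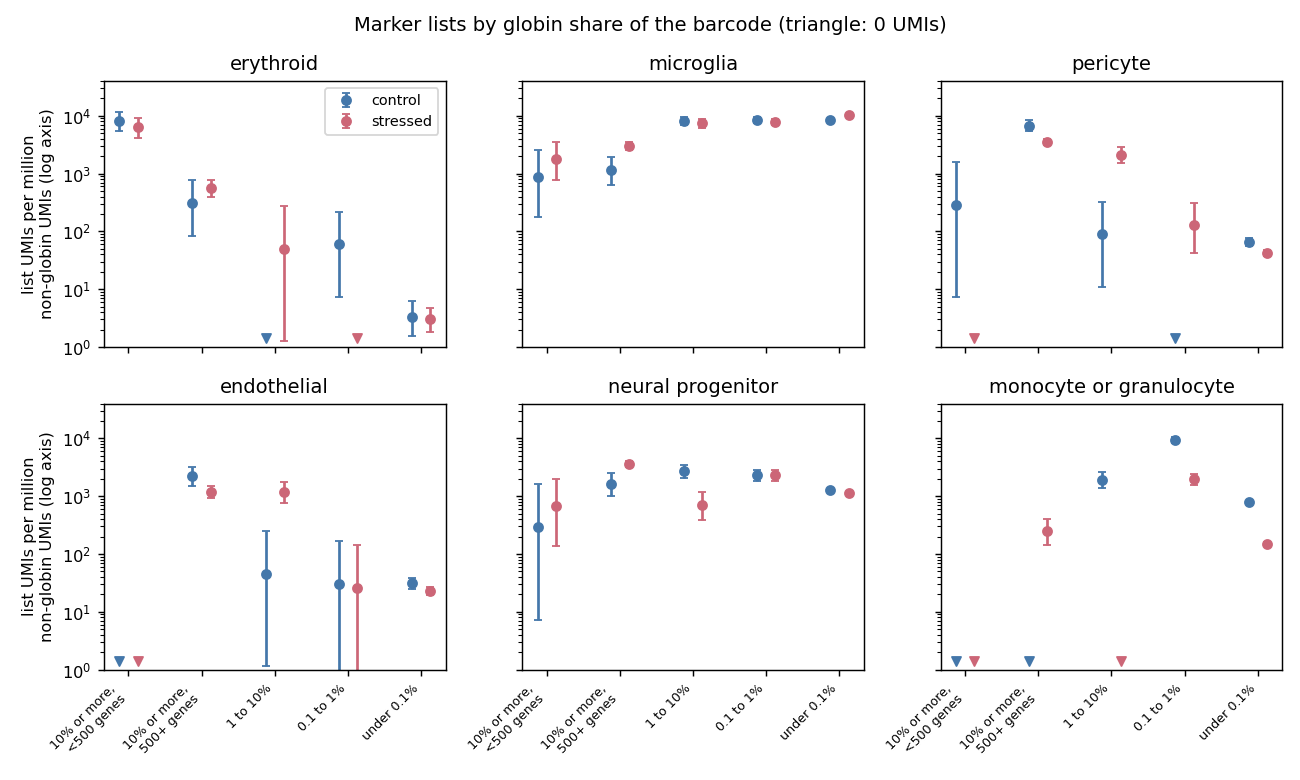
Summed UMIs of 6 marker lists per 1000000 non-globin UMIs (log axis) in barcodes grouped by their globin share, for the control (blue) and stressed (red) library, with 95% Poisson intervals and triangles at 0 UMIs. Erythroid markers are highest in globin-high barcodes with under 500 genes (8083 and 6319), and pericyte markers in those with 500 genes or more.

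The mixture of adult globins was similar between globin-high barcodes, with exceptions in the stressed library. Among 19 control barcodes with at least 20 adult beta UMIs, Hbb-bt made up 11.0% of adult beta UMIs at the lowest, 16.6% at the median and 24.5% at the highest. Among 35 such stressed barcodes it made up 3.70%, 18.1% and 26.5%. The ranges overlapped, but 7 stressed barcodes lay under 10% and 0 control barcodes did. The lowest of them held 1355 Hbb-bs and 52 Hbb-bt UMIs with 52 genes in all, and the next held 353 and 15 UMIs with 1480 genes, so both kinds of barcode were among the 7. The labels do not tie barcodes to embryos, and a part of genotype in this ratio was not tested. Adult alpha genes made up 23.5%, 37.5% and 51.5% of adult globin UMIs (lowest, median, highest) in control and 22.1%, 35.8% and 47.9% in stressed barcodes. Beta transcripts thus outnumbered alpha transcripts in the typical barcode of either library. Hba-a2 made up 0.726%, 2.04% and 3.29% of adult alpha UMIs in control barcodes and 0.401%, 1.33% and 14.1% in stressed barcodes, where the second highest was 7.28%. The barcode at 14.1% held 426 Hba-a1 and 70 Hba-a2 UMIs.

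**Figure D4:**
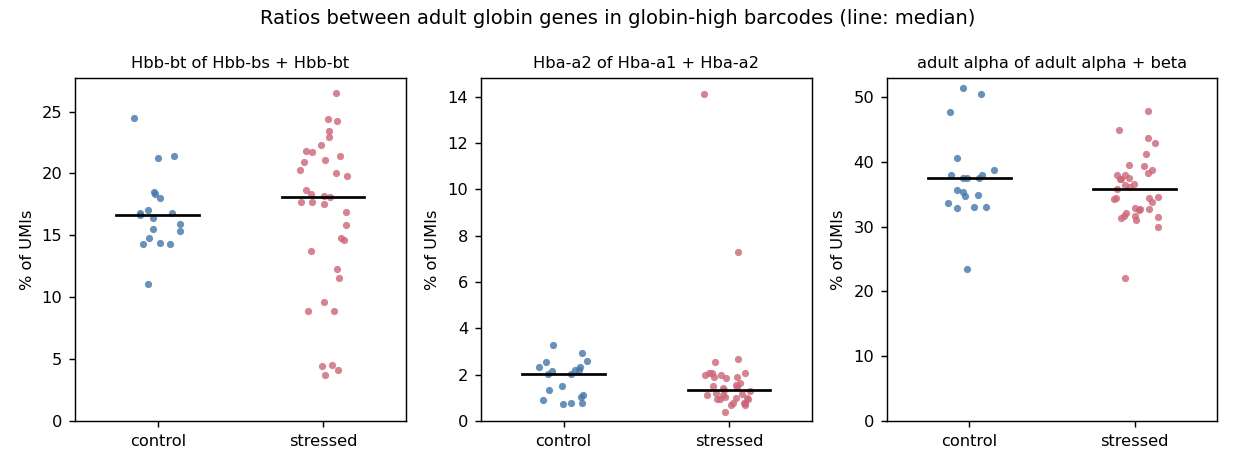
Ratios between adult globin genes in globin-high barcodes with at least 20 adult beta UMIs, as percent of UMIs, in 19 control (blue) and 35 stressed (red) barcodes. Each point is a barcode and each line a median; 7 stressed barcodes lie under 10% in the Hbb-bt panel, and 1 stressed barcode lies at 14.1% in the Hba-a2 panel.

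Embryonic chains were a small part of each locus and came from 4 barcodes. Hba-x made up 1.65% (1.47 to 1.84) of alpha-like UMIs in the control and 0.553% (0.484 to 0.628) in the stressed library. Hbb-y and Hbb-bh1 together made up 1.12% (1.00 to 1.24) and 0.138% (0.113 to 0.167) of beta-like UMIs. Without the single barcode richest in embryonic UMIs in each library, an alternative chosen after seeing the data, these shares were 0.664% and 0.0506% for the alpha locus and 0.0882% and 0.0171% for the beta locus. Of the barcodes with at least 20 alpha-like UMIs, 17 of 19 control and 38 of 40 stressed barcodes held no Hba-x UMI. Of those with at least 20 beta-like UMIs, 19 of 22 control and 38 of 40 stressed barcodes held no Hbb-y or Hbb-bh1 UMI.

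The first control barcode with embryonic chains held 79.6% of that library's embryonic UMIs, in 6387 UMIs, 173 genes and a globin share of 93.9%. It carried 196 Hba-x, 307 Hbb-y and 3 Hbb-bh1 UMIs beside 2038 Hba-a1, 49 Hba-a2, 2847 Hbb-bs and 557 Hbb-bt UMIs, so embryonic chains were 8.59% of its alpha-like and 8.35% of its beta-like UMIs. It thus held adult and embryonic chains of both loci at once, with 3 erythroid marker UMIs and 0 UMIs of every other marker list. The first stressed barcode held 89.9% of that library's embryonic UMIs in only 522 UMIs and 64 genes. It carried 210 Hba-x, 89 Hbb-y and 3 Hbb-bh1 UMIs beside 112 Hba-a1 and 2 Hba-a2 UMIs, and 0 UMIs of Hbb-bs or Hbb-bt. Embryonic chains were thus 64.8% of its alpha-like UMIs and 100% of its beta-like UMIs, and it was the only stressed globin-high barcode without an Hbb-bs UMI.

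The other two barcodes combined embryonic chains with many genes and vascular markers. The control one held 6459 UMIs and 2216 genes with a globin share of 10.5%, just inside the limit, and carried 102 Hba-x and 17 Hbb-y UMIs beside 265 Hba-a1 and 251 Hbb-bs UMIs. Its alpha-like UMIs were 27.6% embryonic and its beta-like UMIs 5.48%, and it held 28 endothelial and 25 pericyte marker UMIs. The stressed one held 4701 UMIs and 1599 genes with a globin share of 7.96%, just outside the limit, and carried 20 Hba-x and 9 Hbb-y UMIs beside 208 Hba-a1 and 123 Hbb-bs UMIs. Its alpha-like UMIs were 8.73% embryonic and its beta-like UMIs 6.21%, and it held 20 endothelial and 0 pericyte marker UMIs. In each of the 4 barcodes the alpha locus was thus at 8.59% or more embryonic. The rest of the embryonic UMIs were 11 in 8 control barcodes and 5 in 4 stressed barcodes, none with more than 3.

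**Figure D5:**
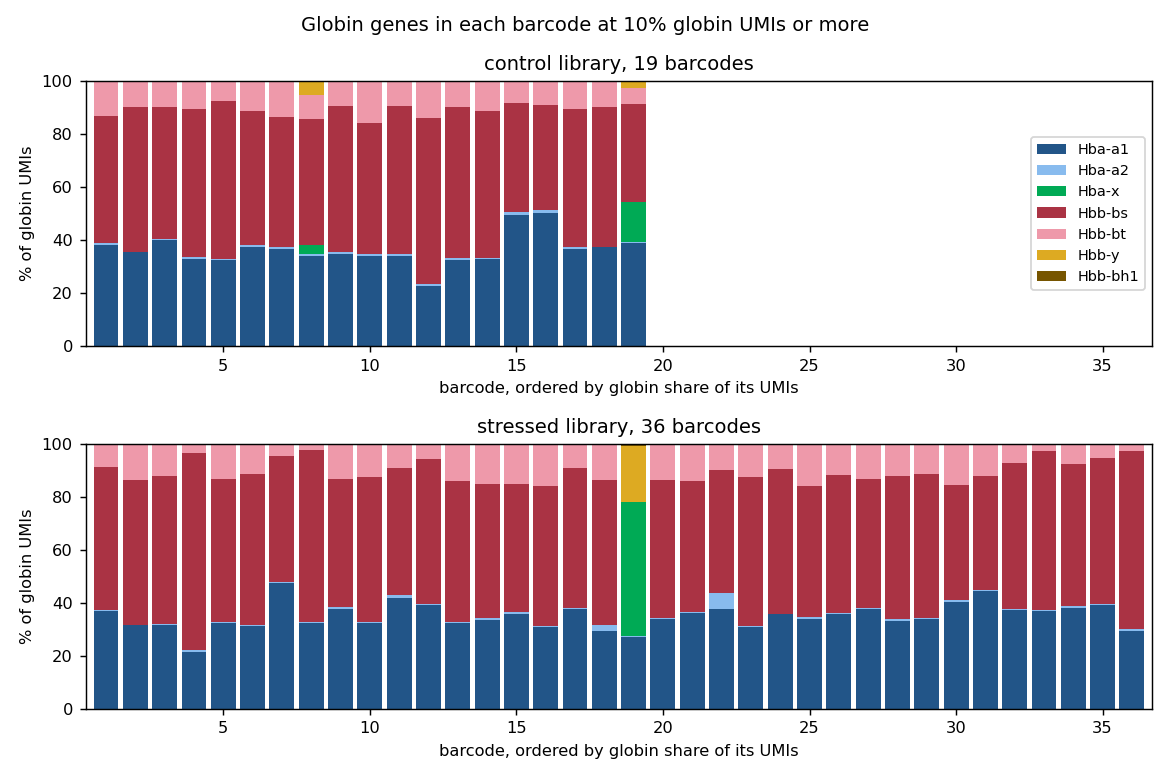
Make-up of the globin UMIs of each globin-high barcode in percent, ordered by globin share, for the control (top, 19 barcodes) and stressed (bottom, 36 barcodes) library. Blue shades are adult alpha genes, red shades adult beta genes, green is Hba-x and yellow is Hbb-y; 2 control barcodes and 1 stressed barcode show visible embryonic chains.

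Alas2 followed the globins at a far lower level. It had 32 UMIs or 11.3 CPM in the control library and 56 UMIs or 8.51 CPM in the stressed library, a log2 difference of -0.41 (-1.06 to 0.27), within counting error. All 32 control and 55 of the 56 stressed UMIs lay in globin-high barcodes. It was detected in 10 of 19 control (52.6%, 28.9 to 75.6) and 20 of 36 stressed (55.6%, 38.1 to 72.1) globin-high barcodes. Among the other barcodes it was detected in 0 of 1137 control barcodes, which allows a share of up to 0.264%, and in 1 of 1431 stressed barcodes. Relative to globins there were 6.75 Alas2 UMIs per 10000 globin UMIs in control and 4.74 in stressed globin-high barcodes. Barcodes with an Alas2 UMI were the richer ones, with a median of 2788.5 control and 3874.5 stressed globin UMIs against 1221 and 1342.5 in those without, so its absence from the rest was not resolved at this depth.

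Among genes that make haem or import its iron, those at 10 CPM or more in either library did not differ 2-fold. Of 15 such genes beside Alas2, 11 reached 10 CPM in either library, 0 were 2 times higher and 0 were 2 times lower, with a median log2 difference of 0.12. Of all 8163 features at that level, 39 (0.478%) were 2 times higher and 184 (2.25%) lower, with a median of -0.10. Most of these genes serve every cell, and most had few UMIs in globin-high barcodes. Alad, the enzyme after the Alas step, had 126 control and 236 stressed UMIs, of which 2 and 8 were in globin-high barcodes, and Alas1, the housekeeping counterpart of Alas2, had 78 and 226, with 0 and 2 there. Both exceptions act in mitochondria. Slc25a37, the iron importer mitoferrin 1, had 40 of its 81 control and 46 of its 122 stressed UMIs in globin-high barcodes, and Fech, which puts iron into haem, had 16 of 55 and 33 of 135.

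Of 11 genes that clear haemoglobin and haem, 9 reached 10 CPM in either library. Among these, 0 were 2 times higher or lower, with a median log2 difference of 0.02. Cd163, under that level, had 18 control UMIs or 6.35 CPM and 9 stressed UMIs or 1.37 CPM. Its log2 difference was -2.22 (-3.55 to -0.99). Cd163 is also on the list of border-associated macrophage markers, and the cluster of that name held 70 control and 20 stressed barcodes. The part of this make-up in the difference was not tested. Hmox1, which opens the haem ring, had 558 control UMIs or 197 CPM and 1969 stressed UMIs or 299 CPM, a log2 difference of 0.60 (0.47 to 0.74), and 1 UMI in globin-high barcodes of each library. Lrp1, an endocytic receptor that also takes up haem bound to haemopexin, had 672 and 1459 UMIs (log2 difference -0.10, -0.23 to 0.04). The iron exporter Slc40a1 had 298 and 708 UMIs (0.03, -0.17 to 0.23). Blvrb, a biliverdin reductase abundant in red cells, had 357 and 710 UMIs (-0.22, -0.41 to -0.04), of which 19 and 31 were in globin-high barcodes. The list as a whole stood at 4330 (2424 to 7142) per 1000000 non-globin UMIs for control and 4062 (2408 to 6420) for stressed globin-high barcodes with under 500 genes, against 928 and 1007 in barcodes under 0.1% globin. Blvrb gave 12 of those 15 control and 12 of those 18 stressed UMIs. In barcodes between 0.1% and 1% globin the list stood at 4434 (3747 to 5212) and 7891 (7027 to 8831), of which Hmox1 gave 108 of 147 control and 257 of 303 stressed UMIs. Only 14 of 30 control and 14 of 21 stressed barcodes of that range held a UMI of the list, so these sums rest on a few barcodes.

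The factors known to switch globin genes were read mainly outside the globin-high barcodes. Of 12, 6 reached 10 CPM, 0 were 2 times higher and 1 was 2 times lower, with a median of -0.29. The lower one was Bcl11a, a repressor of embryonic and fetal globin genes in red cells that neurons also express, with 114 control UMIs or 40.2 CPM and 130 stressed UMIs or 19.8 CPM (log2 difference -1.03, -1.40 to -0.65). Only 1 and 2 of its UMIs were in globin-high barcodes. Lmo2, a partner of the erythroid Tal1 complex, had 401 and 1102 UMIs (0.24, 0.08 to 0.41) with 2 and 8 there. Zbtb7a, another globin repressor, had 81 and 164 UMIs with 0 and 2 there, and Ldb1, the complex's bridging protein, had 122 and 218 with 1 and 2 there. Klf1, the activator of adult beta globin, had 1 and 3 UMIs in all. Of the 14 erythroid markers in the table, 0 reached 10 CPM in either library. Ermap had 7 control and 16 stressed UMIs, Slc4a1 had 7 and 6, and Trim10 had 1 and 7.

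Outside the globin-high barcodes globins were present at a low level that most barcodes did not show. The other 1137 control barcodes held 759 globin UMIs, or 274 CPM (255 to 294), and the other 1431 stressed barcodes held 1910, or 299 CPM (285 to 312). These sums hang on the limit: at 5% they were 253 and 129 CPM, with the control library higher, and at 25% they were 518 and 1350 CPM. Among the 2758 features at 50 CPM or more in these barcodes, 13 (0.471%) were 2 times higher and 39 (1.41%) lower in the stressed library. No globin UMI was found in 913 control barcodes (80.3%) and 953 stressed barcodes (66.6%). Had the same UMIs been spread evenly by depth, a Poisson count would give 55.8% and 33.8% of barcodes at 0. The excess over an even spread came largely from the barcodes between 1% and 10% globin. In barcodes under 1% the levels were 114 CPM in the control and 108 CPM in the stressed library, with 82.1% and 66.8% of barcodes at 0 against 76.7% and 64.3% for an even spread.

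The share of barcodes with a globin UMI depended on depth. As deposited, 21.0% of control and 35.0% of stressed barcodes held at least 1 globin UMI. After each barcode was thinned to 1000 UMIs, which left out 158 control and 42 stressed barcodes, the shares were 11.1% (9.24 to 13.2) and 13.2% (11.48 to 15.1), with overlapping intervals. Without the globin-high barcodes they were 9.49% and 11.2%. In thinned microglia-like barcodes that were not globin-high the share was 8.87% (6.82 to 11.3) in the control and 10.8% (9.04 to 12.7) in the stressed library. In neuron-like barcodes it was 9.35% (4.57 to 16.5) and 11.2% (5.74 to 19.2). The median depths before thinning were 2143 and 3949.5 UMIs in microglia-like and 1314 and 2541 in neuron-like barcodes. The intervals of both classes overlapped in both libraries, so no globin signal of microglia-like above neuron-like barcodes was resolved, and whether these UMIs came from the barcode's own cell was not tested.

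The classes, built from clusters that were made without the globin genes and Alas2, differed in this low level mainly in the control library. In barcodes under 1% globin, control microglia-like barcodes stood at 101 CPM (87.6 to 117) and stressed ones at 105 CPM (96.2 to 114). Neuron-like barcodes stood at 80.3 (47.6 to 127) and 129 (94.2 to 173), monocyte or granulocyte-like barcodes at 38.8 (7.99 to 113) and 102 (55.8 to 171), and border-associated macrophage-like barcodes at 42.9 (20.6 to 78.9) and 64.2 (25.8 to 132). Neural progenitor-like barcodes stood higher in the control library, at 304 (244 to 374), and at 135 (104 to 173) in the stressed library. In the control library the interval of the progenitor-like class lay above those of the other named classes. That of the macrophage-like class lay below that of the microglia-like class, on 10 and 193 UMIs. Counted as barcodes with a globin UMI after thinning, the macrophage-like share was 5.88% (1.63 to 14.4) and the microglia-like share 8.87% (6.82 to 11.3). These intervals overlapped, so an order of these classes was not resolved by barcode. In the stressed library the microglia-like interval overlapped that of every other class, so its place in the order was not resolved. Microglia-like here joins 4 clusters led by Gpnmb, Mki67, Retn and Tmem173, and the cluster of the globin-high barcodes, led by Rgs5, was left unnamed. That unnamed cluster held 19 of 19 control and 25 of 36 stressed globin-high barcodes, with 98.4% and 83.3% of globin UMIs. The other 11 stressed globin-high barcodes were placed with microglia-like clusters and held 16.6% of the globin UMIs; 8 of them had under 500 genes and 3 had more.

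A group of 25 control barcodes between 1% and 10% globin stood apart, all of them in the progenitor-like cluster. They were shallow and alike, with 578 to 1168 UMIs (median 899) and 413 to 737 genes, and held 445 of the 759 control globin UMIs outside globin-high barcodes. Microglia and progenitor markers were detected together in 23 of the 25 (92%), against 18.5% of control barcodes under 0.1% globin, and with neuron markers as well in 68% against 4.34%. Progenitor markers alone were found in 314 of those 1082 barcodes under 0.1%, so membership in the progenitor-like cluster sets part of this contrast. Other control barcodes of that cluster were not compared. Erythroid markers were at 0 UMIs in all 25, which allows up to 168 per 1000000 non-globin UMIs. Adult alpha genes made up 22.5% (18.7 to 26.6) of their adult globin UMIs, against 38.2% (37.8 to 38.7) in the globin-high barcodes of the same library. In barcodes under 0.1% the alpha share was 26.4% (20.1 to 33.4) in the control and 29.7% (26.0 to 33.6) in the stressed library, against 35.3% (35.0 to 35.6) in stressed globin-high barcodes. Summed over barcodes, the globins under 0.1% were thus richer in beta than those of globin-high barcodes in both libraries. Single globin-high barcodes ranged more widely, from 23.5% to 51.5% in control and 22.1% to 47.9% in stressed barcodes. Barcodes between 0.1% and 1% did not share the pattern, with 36.3% (27.8 to 45.4) in control and 46.8% (37.3 to 56.6) in stressed barcodes. The 4 stressed barcodes between 1% and 10% were deeper (3986 to 6752 UMIs), with 1221 globin UMIs. Their alpha share, 41.6% (38.8 to 44.5), was above that of stressed globin-high barcodes. Over all barcodes outside the globin-high ones the alpha share was 25.7% (22.6 to 29.0) for control and 38.3% (36.1 to 40.5) for stressed barcodes. What set these barcodes apart was not tested, and RNA in droplets without cells was not analysed here.

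The genes whose pattern over barcodes was most like that of the summed globins included genes of haem synthesis and vascular genes. Likeness was the mean over both libraries of Pearson's r between log-scaled counts over 1156 and 1467 barcodes, among 9074 genes with at least 20 UMIs in each library. It is a description of barcodes that share libraries and differ in depth. Of the genes reported here, Slc25a37 had the highest value at 0.40, and Fech stood at 0.23. Ube2l6 stood at 0.21, Mkrn1 at 0.20 and Ybx3 at 0.19, and Mkrn1 had 36 of 222 control and 82 of 472 stressed UMIs in globin-high barcodes. Col4a1, a basement membrane collagen, and the pericyte gene Rgs5 stood at 0.20 and Gng11 at 0.19. In globin-high barcodes with under 500 genes Col4a1 and Gng11 had 0 UMIs and Rgs5 had 1 control and 0 stressed UMIs, so their likeness came from the barcodes with more genes. Values near 0.2 in such sparse counts are weak. Among the members, Hbb-bs stood at 0.95, Hba-a1 at 0.91, Hbb-bt at 0.87, Hba-a2 at 0.79 and Alas2 at 0.56, while Hba-x, Hbb-y and Hbb-bh1, each carried by a few barcodes, stood at 0.20, 0.19 and 0.19.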

How the data were processed

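The authors deposited unnormalised UMI counts of each feature in each called cell. The submitters' processing notes list Cell Ranger 3.0.0, STAR, Seurat 2.4, GRCm38.p5 and mm10, and the role of each is not given in the sources used here. The genes, the marker and pathway lists and their rules were chosen with earlier results of these data known. Named genes were the 8 members, other globin genes, up to 4 genes of each list with most UMIs, and the 10 genes most like the summed globins. Gata1, Cldn13, Klf1, Higd1b, Cd163 and the single neural progenitor genes were named after their values were seen. Some genes named by this rule are not reported here.

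Counts were summed over barcodes of a library and divided by its total (CPM), with all 1156 and 1467 barcodes kept. Sums have exact Poisson, shares Clopper-Pearson and ratios exact conditional intervals at 95%, which cover counting error only. A share of barcodes at 0 is limited at 3 counts, and a level at 0 by its upper Poisson bound. Barcodes were thinned with a fixed seed. Clusters were made with scanpy 1.11.5 (Python 3.11.15, igraph 0.11.9) from 2000 variable genes without the members, 30 principal components, 15 neighbours and Leiden resolution 0.5, and named from markers. edgeR 4.0.16 and DESeq2 1.42.0 gave alternative scaling factors only. The counting step was tested on simulated data. Sequences are from RefSeq (GRCm38.p6), whose table matched 7 of the 8 genes; Hbb-bh1 is named only. Alternatives tried were a barcode filter, other scalings, other limits, depths and cluster resolution, and leaving out single or shared barcodes.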

Additional observations from a re-analysis of the deposited data

How the results depend on the processing

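No paired analysis was possible because each condition has 1 library and the labels give no replicate numbers. With a filter to barcodes with 500 genes or more and no more than 10% mitochondrial UMIs (1068 control and 1407 stressed), the summed haemoglobin log2 difference rose from 0.08 to 1.19, since the filter removes the globin-high barcodes with few genes; the globin-high shares became 0.468% and 0.995%, and the embryonic shares 2.18% and 0.0976% (alpha) and 0.333% and 0.0348% (beta) in the control and stressed library. The summed difference was 0.21 with TMM factors, 0.23 with DESeq2 factors, 1.04 without the 1% of barcodes richest in globin, 0.44 as a mean of per-barcode CPM and 0.33 without shared barcodes. Without the barcode richest in embryonic UMIs the embryonic shares were 0.664% and 0.0506% (alpha) and 0.0882% and 0.0171% (beta). The level outside globin-high barcodes was 253 and 129 CPM with a limit of 5%, 518 and 1350 CPM with a limit of 25%, and 114 and 108 CPM without barcodes at 1 to 10%. Shares of barcodes with a globin UMI were 8.91% and 9.34% at 500 UMIs, 15.6% and 19.7% at 2000 UMIs, and 3.41% and 3.79% with at least 2 globin UMIs. At resolution 1.0 the cluster led by Rgs5 held 91.1% of stressed globin UMIs. Features 2 times higher numbered 23 at 20 CPM, 7 at 100 CPM and 237 with no minimum, and lower 92, 18 and 4625. Differences of single genes reversed for Hba-x (2.72), Hbb-y (1.38) and Hbb-bh1 (2.49) as means of per-barcode CPM. A stressed barcode of 522 UMIs held 210 of 231 Hba-x, 89 of 102 Hbb-y and all 3 Hbb-bh1 UMIs of its library. In such a mean it weighs as much as a deep barcode. Hbb-y also reversed without the richest 1% of barcodes (1.13). Hba-a2 changed sign with the barcode filter (0.39), without the richest 1% (1.20) and as a mean of per-barcode CPM (0.51). No cause of these other changes was tested. The other 17 recomputed summary values stayed within the error or the 1.5-fold range of the reported ones. Depth limits Alas2 and Hbb-bh1 most, with 32 and 6 control UMIs. The alternatives without shared barcodes, without the richest embryonic barcode and without barcodes at 1 to 10% were added after seeing the data.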
